A study of Caenorhabditis elegans with 12 samples.

Results

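C-type lectin genes, named clec- in Caenorhabditis elegans, were followed in RNA sequenced from whole adult animals. The deposited table holds 240 clec rows among 46904 genes, of which 50 had no count in any of 12 libraries. Rows with at least 60 counts over the 12 libraries were kept, which gave 90 rows and 89 genes, because clec-209 is listed under 2 gene identifiers with equal counts in all 12 libraries and was counted once. Its value below is that of either copy. The rows just inside the limit were clec-36 (68 counts), clec-225 (76) and clec-70 (83), and those just outside it were clec-55 (59), clec-28 (56) and clec-172 (49). The other 150 rows are not described further. The study compared N2 wild-type animals with the mutant pmk-1(km25), a deletion allele carried by every cell. In both strains, about 1000 synchronized animals on day 1 of adulthood were washed into 100 mM NaCl or into 100 mM KCl with no bacterial food and frozen after 4 h. Each library is thus a pool of animals, and each of the 4 groups has 3 libraries that the labels call biological replicates. KCl supplies potassium and no sodium, and NaCl the reverse, so that a salt difference is one in both ions.

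C-type lectins are proteins with a fold that in many of them binds sugars, often with the help of calcium. The nematode family is large, many members are predicted to be secreted, and many are switched on in the intestine by infection, so that particular clec genes serve as readouts of immune activation. PMK-1 is a p38 MAP kinase that acts below the adaptor TIR-1 and the kinases NSY-1 and SEK-1, and in the intestine it controls immune effector genes through the transcription factor ATF-7. Other clec genes are expressed in the germ line or in other tissues, so that RNA of whole animals holds family members of several sources. In such RNA, fewer cells of a type and less RNA per cell cannot be told apart.

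The libraries held 8931797 to 11445709 counts each, and 13353 genes passed the filter on low counts and were tested with the edgeR quasi-likelihood model. Reads of the pmk-1 gene were present in the mutant, at 21.8 CPM (the count scaled to the library's effective size) in KCl and 23.6 in NaCl against 33.0 and 32.3 in wild type (log2 -0.595, edgeR adjusted p = 0.0326 in KCl; -0.45, adjusted p = 0.0809 in NaCl). All 8 of 8 non-lectin PMK-1 effector genes listed were lower in pmk-1 in both salts, with medians of -4.93 in NaCl and -6.31 in KCl on the log2 scale. Of 10 genes of the p38 cascade, 2 were higher in pmk-1 in NaCl and 3 were lower in KCl. The strains also differed in markers of the germ line. Of 47 tested sperm markers, 45 were higher in pmk-1 in NaCl and 43 in KCl, and their summed level was 29.4 to 273 CPM in wild-type libraries against 1613 to 6105 in pmk-1 libraries. In wild-type KCl 4 of 53 sperm markers had no count (spe-19, spe-29, spe-38 and peel-1), in wild-type NaCl 1 (spe-29), and in pmk-1 none. Of 15 later embryo markers, 10 were lower and 1 higher in pmk-1 in either salt, and none was at 0. The summed later embryo markers stood at 201 to 359.5 CPM in wild type and 116 to 157 in pmk-1. Of 16 intestine markers 4 were higher and 2 lower in either salt, and of 14 oocyte markers 0 and 1 were lower in NaCl and KCl, although within each salt both sums were lower in every pmk-1 library (intestine 42070 to 58600 CPM against 27120 to 44750, oocyte 9433 to 10010 against 4108 to 8850). Epidermis markers gave 1 higher and 3 lower of 9 in NaCl and 1 higher and 2 lower in KCl, and their sum was 1031 to 1351 CPM in wild type and 1651 to 2440 in pmk-1. Of 8 muscle markers 2 were higher in NaCl and 1 in KCl. The first replicate of each group had the highest sperm, epidermis and muscle scores of its group, a score being the mean of the markers' centred log2 CPM.

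The 89 genes covered a wide range of levels. Averaged over the 12 libraries, 6 genes stood at 100 CPM or more, 31 at 10 to under 100, 40 at 1 to under 10 and 12 below 1. The 3 most abundant, clec-87, clec-63 and clec-88, made up 52.2% of all clec CPM. Per kilobase of exon, the order at the top was clec-87 (943 CPM per kb), clec-63 (322), clec-88 (274), clec-91 (214), clec-50 (152.2) and clec-1 (136). The summed level of the family in KCl was 3273 to 3501 CPM in wild type and 2920 to 3182 in pmk-1, without overlap. In NaCl the sums overlapped, at 3130 to 3315 CPM and 3006 to 3217.

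The most abundant member, clec-87, had 1013, 1044 and 1059.8 CPM in KCl and 999.9, 989.6 and 989 in NaCl for wild type, and 522, 1077 and 1006 in KCl and 346, 893 and 925 in NaCl for pmk-1. Both first replicates of pmk-1 stood far below all other libraries, and no genotype difference was called (-0.46 ± 0.33 in NaCl, adjusted p = 0.303; -0.26 ± 0.33 in KCl, adjusted p = 0.581). The same 2 libraries were the lowest for clec-88, at 177 and 119.7 CPM against 309.7 to 416 in the other 10. They were also the lowest for clec-91, at 87.9 and 68.6 CPM against 172 to 234. Without the first replicates of all groups, clec-91 was called lower in pmk-1 in NaCl (-0.363, edgeR adjusted p = 0.0176). With the replicate block, clec-88 and clec-91 were called lower in pmk-1 in NaCl (-0.66, edgeR adjusted p = 0.0487; -0.71, adjusted p = 0.0344). Together with clec-87, they followed the oocyte score of the libraries within groups, with Pearson r of 0.95 for clec-87, 0.93 for clec-88 and 0.91 for clec-91 over the 12 libraries' deviations from their group means. In the same order, r was -0.90, -0.91 and -0.88 with the intestine score and -0.90, -0.92 and -0.91 with the epidermis score. Oocyte content was thus not the only measure that moved with them. The oocyte score was lowest in those same 2 libraries (-0.437 and -1.05, against -0.0884 to 0.294 elsewhere). What oocyte content adds to these levels was not tested. Without strand information, the 138 exon bases that clec-87 shares with iars-2 on the other strand, and the 16 that clec-91 shares with ZK858.8, cannot be assigned.

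The comparison of pmk-1 with wild type asks which clec genes depend on PMK-1, and it was made in each salt. In NaCl, 28 of the 85 tested members (32.9%) were higher in pmk-1 at an edgeR adjusted p under 0.05, against 16.7% of all tested genes, and 7 (8.24%) were lower, against 10.1% of all tested genes. In KCl, 25 members (29.4%) were higher, against 15.2% of all tested genes, and 13 (15.3%) were lower, against 9.18%. The members' median log2 difference was 0.67 in NaCl and 0.38 in KCl, while that of all tested genes was 0.06 and 0.02. Over both salts, 33 members were called higher, 20 of them in both salts, 8 in NaCl alone and 5 in KCl alone. Another 13 were called lower, 7 in both salts, 6 in KCl alone and 0 in NaCl alone, and 39 tested members were called in neither direction. That a call was made in 1 salt alone does not show a difference between the salts, and no member's interaction passed the threshold.

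These counts include members that the filter on low counts could only admit through 1 strain. Of the 85, 10 reached the filter level of 1.05 CPM in pmk-1 libraries alone (clec-26, clec-60, clec-61, clec-82, clec-117, clec-119, clec-142, clec-153, clec-174 and clec-175). Another 3 reached it in wild-type libraries alone (clec-3, clec-67 and clec-78). Among the called members, clec-73, clec-79, clec-123 and clec-151 reached it in too few wild-type libraries to pass there. Likewise, clec-196 reached it in too few pmk-1 libraries. Members admitted in this way had to differ between the strains, and their number supports no direction. The 4 members that did not pass the filter were clec-36, clec-76, clec-221 and clec-225. The counts also rested on single libraries. Without wild-type NaCl 2, wild-type NaCl 3 or pmk-1 NaCl 1, the number higher in NaCl fell from 28 to 13, 12 or 18. Likewise, without wild-type KCl 2, wild-type KCl 3 or pmk-1 KCl 1, the number higher in KCl fell from 25 to 10, 10 or 13, and the number lower in KCl fell from 13 to 8 without wild-type KCl 3. A block for the replicate number gave 13 members lower in NaCl.

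**Figure D1:**
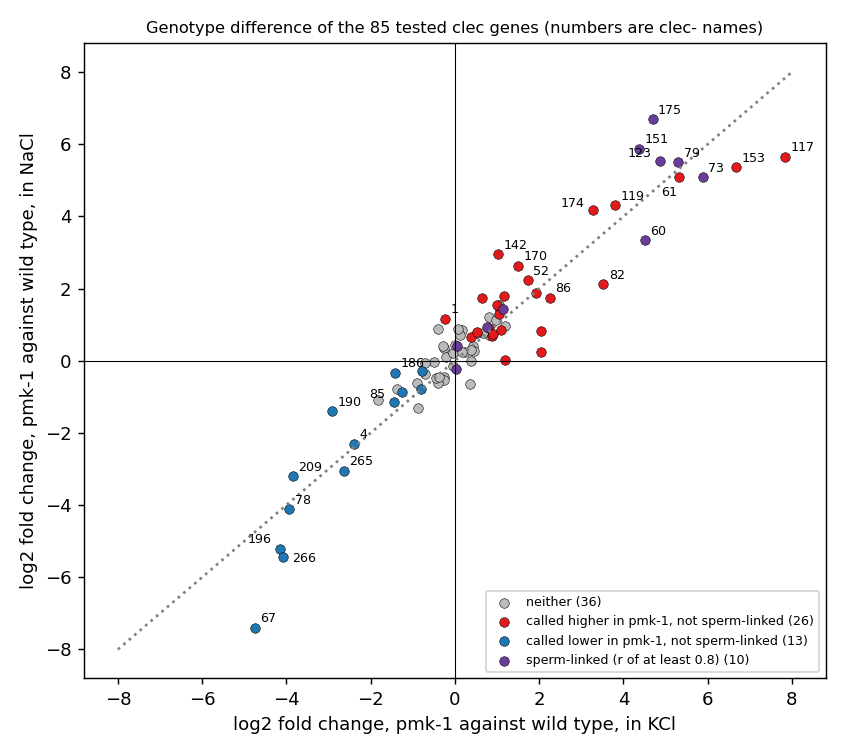
Log2 fold change of pmk-1 against wild type in KCl (horizontal) and in NaCl (vertical) for the 85 tested clec genes, 1 point a gene, coloured by class, with the dotted line marking equal values. The points at the lower left are the members lower in both salts, down to clec-67 at -7.40 in NaCl, and clec-1 stands off the line, higher in pmk-1 in NaCl alone.

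Of the members lower in pmk-1, 6 were called in both salts and remained called when each of the 12 libraries was left out in turn. These were clec-67, clec-78, clec-196, clec-209, clec-265 and clec-266. Of them, clec-67 and clec-78 passed the filter on low counts through wild-type libraries alone. The gene clec-196 reached the filter level in too few pmk-1 libraries to pass there. The direction of clec-67, clec-78 and clec-196 is therefore not a result, and calls kept without each library add nothing to it. All 6 had wild-type libraries that lay above the pmk-1 libraries of the same salt. In the whole family, every pmk-1 library lay below every wild-type library for 15 members in NaCl, against 22.3% of all tested genes, and for 14 in KCl, against 22.9%. Every pmk-1 library lay above for 35 members in NaCl, against 29.1%, and for 31 in KCl, against 24.9%.

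The steadiest of the 6 in wild type was clec-209, with 54.3, 61.4 and 50.4 CPM in KCl and 62.1, 52.5 and 63.7 in NaCl. In pmk-1 it had 2.59, 3.95 and 4.97 CPM in KCl and 4.68, 8.38 and 6.31 in NaCl. The 6 wild-type values spanned a narrow range, and the highest pmk-1 value was far below the lowest of them. Its log2 difference was -3.20 ± 0.25 in NaCl (edgeR adjusted p = 0.000145) and -3.85 ± 0.26 in KCl (adjusted p = 2.97e-05). Between the salts it was level in wild type, and in pmk-1 the NaCl mean of 6.46 ± 1.85 CPM (SD, n = 3) against 3.84 ± 1.20 in KCl did not pass the threshold (log2 0.75 ± 0.26, adjusted p = 0.195).

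The gene clec-67, an infection response gene used as a readout of PMK-1 activity, had 2.67, 3.05 and 3.31 CPM in KCl and 1.45, 1.77 and 3.25 in NaCl for wild type, and 0.104, 0.188 and 0 in KCl and 0, 0 and 0 in NaCl for pmk-1. No read was counted for it in any pmk-1 NaCl library, so that its level there was at least 18.5-fold lower than in wild type, with the floor set at 3 counts for the group. The fitted differences were -7.40 ± 1.00 in NaCl (edgeR adjusted p = 0.00291), where the value depends on the prior count, and -4.75 ± 0.69 in KCl (adjusted p = 0.00309).

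In the same run of clec genes on chromosome IV, clec-78 had 6.05, 8.95 and 19.3 CPM in KCl and 1.78, 10.1 and 12.7 in NaCl for wild type, and 0.828, 0.658 and 0.725 in KCl and 0.571, 0.453 and 0.364 in NaCl for pmk-1. Wild-type NaCl 1 stood well below the other wild-type libraries, whereas the 6 pmk-1 libraries all lay below 1 CPM. The log2 difference was -4.11 ± 0.73 in NaCl (edgeR adjusted p = 0.00461) and -3.94 ± 0.69 in KCl (adjusted p = 0.00417).

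For clec-265 the levels were 17.3, 11.7 and 9.32 CPM in KCl and 7.24, 4.05 and 5.27 in NaCl for wild type, and 1.97, 0.47 and 3.73 in KCl and 1.37, 0.113 and 0.486 in NaCl for pmk-1. All 3 KCl values in wild type lay above the 3 NaCl values, a difference that did not pass the threshold (log2 -1.21 ± 0.63, adjusted p = 1.0). Against wild type, pmk-1 was lower by 3.04 ± 0.75 on the log2 scale in NaCl (edgeR adjusted p = 0.0136) and by 2.64 ± 0.68 in KCl (adjusted p = 0.0168).

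The most abundant of the 6 in wild type was clec-266, with 111, 134 and 184 CPM in KCl and 113.2, 139 and 129 in NaCl for wild type, and 0.104, 5.08 and 20.1 in KCl and 0, 5.21 and 3.64 in NaCl for pmk-1. The pmk-1 KCl libraries differed widely, and the first replicate of each pmk-1 group was the lowest. The log2 difference was -5.43 ± 1.05 in NaCl (edgeR adjusted p = 0.0056) and -4.09 ± 0.95 in KCl (adjusted p = 0.011). In all, 371 of the 3036 exon bases of clec-266 overlap kqt-1, a potassium channel gene on the other strand, and reads there cannot be assigned without strand information.

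The last of the 6, clec-196, had 29.7, 33.7 and 41.7 CPM in KCl and 24.4, 32.2 and 30.2 in NaCl for wild type, and 0, 1.03 and 4.87 in KCl and 0.457, 1.36 and 0.486 in NaCl for pmk-1. It showed the same order of the pmk-1 KCl libraries as clec-266, with no count in the first replicate and the highest value in the third. Its differences were -5.21 ± 0.90 in NaCl (edgeR adjusted p = 0.00416) and -4.15 ± 0.81 in KCl (adjusted p = 0.0058). Within groups, clec-196 and clec-266 rose and fell with the later embryo score of the libraries, with r of 0.86 and 0.77. That score lay between 0.577 and 1.61 in the wild-type libraries and between -1.58 and -0.417 in the pmk-1 libraries, so that embryo content and genotype cannot be told apart for these genes. The corresponding r was 0.60 for clec-209, 0.49 for clec-78, -0.09 for clec-67 and -0.20 for clec-265.

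**Figure D2:**
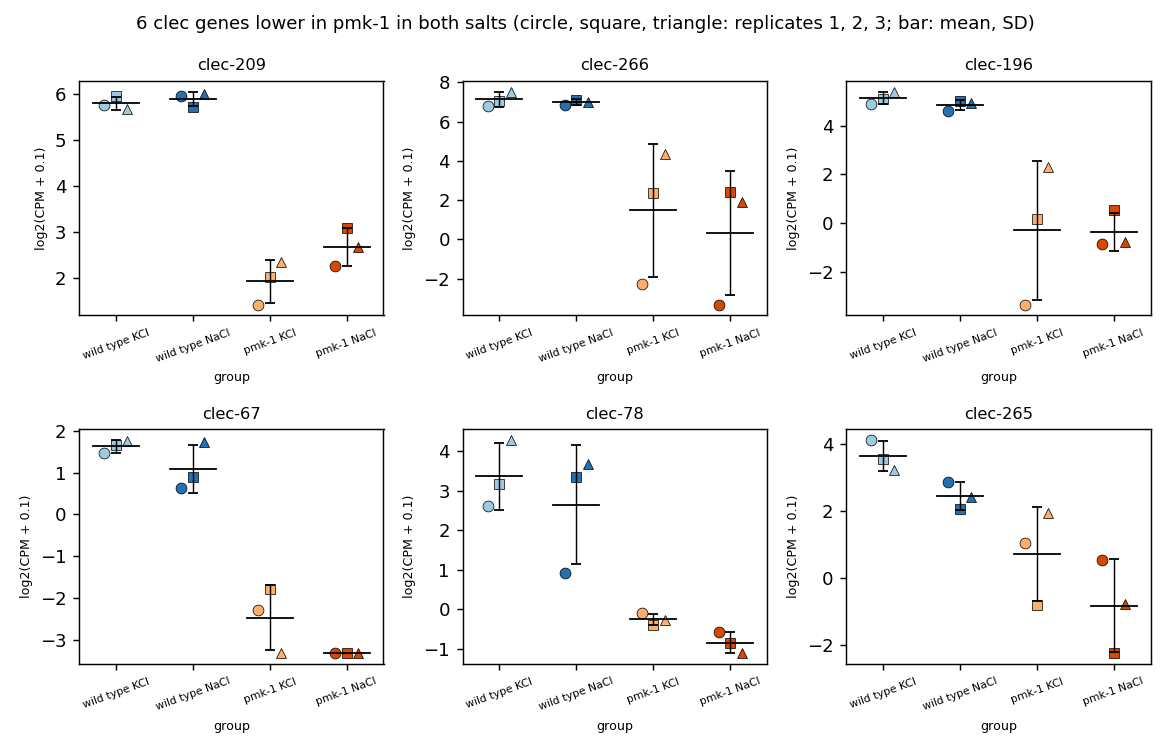
Level of the 6 clec genes lower in pmk-1 in both salts, as log2(CPM + 0.1), in the 4 groups, with 1 point a library (circle, square and triangle for replicates 1, 2 and 3), the mean as a bar and the SD as whiskers (n = 3). The wild-type points of every panel lie above the pmk-1 points of the same salt. Over both salts, the wild-type points of clec-209 span the narrowest range, and clec-266 and clec-196 have the widest spread within pmk-1 KCl.

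A smaller fall was seen for clec-65, the other member called in both salts, with 43.0, 24.7 and 25.1 CPM in KCl and 27.5, 27.8 and 25.5 in NaCl for wild type, and 21.0, 13.3 and 18.5 in KCl and 19.3, 14.4 and 12.99 in NaCl for pmk-1. The groups did not overlap in either salt, and the differences were -0.79 ± 0.26 in NaCl (edgeR adjusted p = 0.0409) and -0.81 ± 0.26 in KCl (adjusted p = 0.0385). The NaCl call was lost without any one of pmk-1 NaCl 2, pmk-1 NaCl 3, wild-type NaCl 1, wild-type NaCl 2 or wild-type NaCl 3 (adjusted p of 0.0761 to 0.104), and the KCl call was lost without any one of pmk-1 NaCl 2, wild-type NaCl 2, wild-type NaCl 3, wild-type KCl 1, wild-type KCl 3, pmk-1 KCl 2 or pmk-1 KCl 3 (adjusted p of 0.0511 to 0.139).

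In KCl alone, 6 members were called lower, and clec-186 and clec-190 among them remained called when any library was left out. With the replicate block, 3 of the 6 were called lower in NaCl too, clec-190 (-1.42, edgeR adjusted p = 0.0237), clec-4 (-2.32, adjusted p = 0.0332) and clec-85 (-1.23, adjusted p = 0.00969). DESeq2 called the same 3 in NaCl. Without the first replicates, these 3, clec-47 (-0.457, edgeR adjusted p = 0.0312) and clec-186 (-0.684, adjusted p = 0.013) were called lower in NaCl. In that fit the KCl calls of clec-4 and clec-12 were lost (adjusted p of 0.31 and 0.0704). For clec-190 the levels were 24.4, 37.3 and 16.5 CPM in KCl and 25.9, 32.5 and 22.3 in NaCl for wild type, and 0.725, 3.01 and 6.63 in KCl and 7.42, 12.7 and 10.7 in NaCl for pmk-1. All 6 wild-type libraries lay above all 6 pmk-1 libraries, and within pmk-1 the NaCl values lay above the KCl values. The genotype difference was -2.91 ± 0.57 in KCl (edgeR adjusted p = 0.00592) and -1.39 ± 0.53 in NaCl (adjusted p = 0.0715). For clec-186 they were 18.98, 20.8 and 20.1 CPM in KCl and 19.1, 19.2 and 21.9 in NaCl for wild type, and 11.5, 5.27 and 5.49 in KCl and 21.6, 12.6 and 13.7 in NaCl for pmk-1. Wild type held steady at about the same level in both salts, pmk-1 KCl lay below it, and pmk-1 NaCl overlapped it through replicate 1 alone. The difference was -1.43 ± 0.31 in KCl (adjusted p = 0.00835) and -0.33 ± 0.30 in NaCl (adjusted p = 0.406).

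The other 4 were clec-4, clec-12, clec-47 and clec-85. An infection response gene that depends on PMK-1, clec-85, had 13.5, 13.5 and 11.2 CPM in KCl and 15.4, 14.6 and 13.3 in NaCl for wild type, and 8.39, 2.45 and 3.31 in KCl and 10.3, 4.301 and 5.10 in NaCl for pmk-1. The pmk-1 libraries lay below the wild-type libraries in both salts, with differences of -1.44 ± 0.44 in KCl (edgeR adjusted p = 0.0342) and -1.13 ± 0.43 in NaCl (adjusted p = 0.0713). The KCl call was lost without any one of wild-type KCl 1, wild-type KCl 2, wild-type KCl 3, pmk-1 KCl 2 or pmk-1 KCl 3 (adjusted p of 0.0681 to 0.1), and 397 of the 1434 exon bases of clec-85 overlap Y54G2A.40 on the same strand. The gene clec-47 had 103, 83.0 and 97.8 CPM in KCl and 83.5, 60.5 and 57.3 in NaCl for wild type, and 44.6, 67.8 and 52.1 in KCl and 78.4, 40.9 and 47.1 in NaCl for pmk-1, lower by 0.79 ± 0.25 on the log2 scale in KCl (adjusted p = 0.0383). Its groups overlapped in NaCl (log2 -0.27 ± 0.25, adjusted p = 0.408), and the KCl call was lost without any one of wild-type NaCl 2, wild-type KCl 1, wild-type KCl 2, wild-type KCl 3, pmk-1 KCl 1 or pmk-1 KCl 3 (adjusted p of 0.051 to 0.121). For clec-12 the mean fell from 4.01 ± 0.45 to 1.68 ± 0.615 CPM in KCl (SD, n = 3; log2 -1.25 ± 0.41, adjusted p = 0.0435), a call lost without any one of pmk-1 NaCl 2, pmk-1 NaCl 3, wild-type NaCl 2, wild-type KCl 1, wild-type KCl 2, wild-type KCl 3, pmk-1 KCl 1 or pmk-1 KCl 2 (adjusted p of 0.0552 to 0.132).

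The infection-induced gene clec-4 had 60.8, 11.2 and 12.83 CPM in KCl and 11.4, 8.01 and 8.34 in NaCl for wild type, and 1.86, 1.88 and 12.4 in KCl and 1.60, 1.81 and 2.19 in NaCl for pmk-1. Wild-type KCl 1 stood far above the others of its group and pmk-1 KCl 3 stood apart in its own, so that the KCl groups overlapped. The KCl difference of -2.39 ± 0.78 (edgeR adjusted p = 0.045) was lost without any one of pmk-1 NaCl 2, pmk-1 NaCl 3, wild-type NaCl 1, wild-type NaCl 2, wild-type NaCl 3, wild-type KCl 1, wild-type KCl 3, pmk-1 KCl 1 or pmk-1 KCl 2 (adjusted p of 0.0562 to 0.234). In NaCl the groups did not overlap, and the difference of -2.30 ± 0.83 did not pass the threshold (adjusted p = 0.061).

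Members higher in pmk-1 are given as a set with a clear level in wild type and a set close to 0 there. Of all 33, 4 were called in both salts and remained called when each library was left out, namely clec-5, clec-52, clec-73 and clec-86. However, clec-73 reached the filter level in too few wild-type libraries to pass there, so that its direction is not a result.

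In the first set, clec-52, which is induced by Staphylococcus aureus, had 5.64, 5.53 and 6.92 CPM in KCl and 5.90, 5.72 and 5.53 in NaCl for wild type, and 20.8, 17.8 and 21.4 in KCl and 42.5, 21.5 and 16.997 in NaCl for pmk-1. The highest wild-type value lay well below the lowest pmk-1 value, and pmk-1 NaCl 1 stood above the rest. The difference was 2.24 ± 0.31 in NaCl (edgeR adjusted p = 0.00203) and 1.73 ± 0.30 in KCl (adjusted p = 0.00417). A gene of lower level, clec-86, had 1.54, 1.33 and 2.31 CPM in KCl and 2.78, 2.29 and 2.19 in NaCl for wild type, and 10.7, 7.90 and 6.42 in KCl and 10.7, 6.68 and 7.04 in NaCl for pmk-1. Its strains did not overlap either, and it differed by 1.75 ± 0.32 in NaCl (adjusted p = 0.00495) and 2.26 ± 0.33 in KCl (adjusted p = 0.00196), with 63 of its 599 exon bases shared with alh-10 on the other strand. For clec-5 the levels were 27.5, 24.01 and 18.3 CPM in KCl and 23.8, 22.1 and 19.2 in NaCl for wild type, and 56.1, 41.8 and 49.7 in KCl and 80.9, 45.5 and 45.3 in NaCl for pmk-1. The rise was 1.40 ± 0.24 in NaCl (adjusted p = 0.00419) and 1.08 ± 0.24 in KCl (adjusted p = 0.00952), again without overlap of the strains.

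Smaller or less even rises were found for clec-49, clec-54 and clec-170. A gene of defence against Serratia marcescens, clec-49, had 19.2, 19.1 and 15.2 CPM in KCl and 18.8, 19.4 and 19.1 in NaCl for wild type, and 35.2, 27.9 and 36.4 in KCl and 38.01, 29.9 and 24.5 in NaCl for pmk-1. Its pmk-1 libraries lay above all wild-type libraries, by 0.89 ± 0.19 on the log2 scale in KCl (edgeR adjusted p = 0.0075) and 0.69 ± 0.19 in NaCl (adjusted p = 0.0197), the latter lost without any one of pmk-1 NaCl 1, wild-type NaCl 1, wild-type NaCl 2 or wild-type NaCl 3 (adjusted p of 0.0515 to 0.0959). For clec-54 the levels were 1.64, 2.10 and 1.70 CPM in KCl and 2.67, 4.05 and 2.19 in NaCl for wild type, and 10.4, 5.64 and 6.63 in KCl and 7.42, 3.96 and 4.37 in NaCl for pmk-1, a rise of 2.05 ± 0.38 in KCl (adjusted p = 0.00489). In NaCl, where wild type was higher and pmk-1 lower than in KCl, the groups overlapped (0.82 ± 0.37, adjusted p = 0.112). For clec-170 they were 2.56, 2.19 and 2.11 CPM in KCl and 2.56, 1.87 and 2.81 in NaCl for wild type, and 12.1, 4.52 and 3.0 in KCl and 24.9, 10.1 and 10.2 in NaCl for pmk-1, a rise of 2.63 ± 0.53 in NaCl (adjusted p = 0.00643). In KCl its pmk-1 libraries also lay above wild type, led by the first replicate, without passing the threshold (1.51 ± 0.52, adjusted p = 0.0554).

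The second set was drawn by level from 20 of the 89 genes. These averaged under 1 CPM over the wild-type libraries and at least 1 CPM over the pmk-1 libraries, so that their direction is not a result. Of the 20, 13 were called higher in pmk-1 in NaCl or KCl. Of the genes given next, clec-60, clec-61, clec-82, clec-117 and clec-153 passed the filter on low counts through pmk-1 libraries alone. The infection-induced gene clec-60 had 0.513, 0.476 and 0 CPM in KCl and 0.779, 0.312 and 0 in NaCl for wild type, and 13.6, 4.14 and 5.70 in KCl and 5.71, 3.28 and 1.94 in NaCl for pmk-1. It rose by 4.51 ± 0.96 in KCl (edgeR adjusted p = 0.00803) and by 3.35 ± 0.95 in NaCl (adjusted p = 0.0244), and the NaCl call was lost without any one of pmk-1 NaCl 1, wild-type NaCl 2 or wild-type NaCl 3 (adjusted p of 0.0712 to 0.0896). Its neighbour clec-61 had 0.205, 0 and 0.1 CPM in KCl and 0, 0.208 and 0.176 in NaCl for wild type, and 11.8, 0.658 and 1.14 in KCl and 11.98, 1.02 and 1.94 in NaCl for pmk-1. Both first replicates of pmk-1 stood several-fold above the other pmk-1 libraries. The rises of 5.33 ± 1.52 in KCl (adjusted p = 0.0264) and 5.11 ± 1.47 in NaCl (adjusted p = 0.0255) were each lost in some fits, the first without any one of wild-type KCl 1, wild-type KCl 2, wild-type KCl 3 or pmk-1 KCl 1 (adjusted p of 0.0542 to 0.149) and the second without any one of pmk-1 NaCl 1, wild-type NaCl 1, wild-type NaCl 2 or wild-type NaCl 3 (adjusted p of 0.0682 to 0.135).

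The gene clec-82, also induced by infection, had 0.205, 0.572 and 0.2 CPM in KCl and 0.779, 0.208 and 0.702 in NaCl for wild type, and 6.01, 1.32 and 4.45 in KCl and 3.54, 2.49 and 1.46 in NaCl for pmk-1. All pmk-1 libraries lay above all wild-type libraries, by 3.52 ± 0.71 in KCl (edgeR adjusted p = 0.00669) and 2.12 ± 0.67 in NaCl (adjusted p = 0.0375), and the NaCl call was lost without any one of pmk-1 NaCl 1, pmk-1 NaCl 2, wild-type NaCl 1, wild-type NaCl 2, wild-type NaCl 3 or pmk-1 KCl 3 (adjusted p of 0.0529 to 0.132). Among genes of the same shape outside the rule for naming, chosen after their values were seen, clec-117 had no count in wild-type KCl and 5.799, 1.60 and 1.45 CPM in pmk-1 KCl, which is at least 29.7-fold higher with 3 counts over the group as the floor. Likewise, clec-153 had 0, 0.0953 and 0 CPM in wild-type KCl and 10.4, 1.51 and 2.28 in pmk-1 KCl (log2 6.68 ± 1.61, adjusted p = 0.0131), a call lost without either wild-type KCl 2 or wild-type KCl 3 (adjusted p of 0.0527 to 0.0639). In both genes the first pmk-1 replicate was the highest.

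The first pmk-1 replicates also had the highest sperm scores, 2.98 in KCl and 3.59 in NaCl against 1.56 to 2.17 in the other pmk-1 libraries and -3.5 to -0.70 in wild type. A link to sperm content was therefore described apart from the genotype, by correlating each member's deviations from its 4 group means with those of the score over the 12 libraries. No p-value is given, since the 12 points share their libraries and depth, and the 4 first replicates carry most of the spread. At r of at least 0.8, 10 members were sperm-linked. They were clec-73 (0.94), clec-151 (0.93), clec-83 (0.89), clec-79 (0.88), clec-123 (0.87), clec-63 (0.85), clec-80 (0.84), clec-60 (0.84), clec-41 (0.83) and clec-175 (0.82). Spearman's rho for these ran from 0.519 to 0.874. Just below the limit were clec-5 (0.78), clec-221 (0.76) and clec-62 (0.753). Without the 4 first replicates, r of the 10 ran from -0.197 to 0.789, 7 of them positive and 0 at 0.8 or above, so that the link rests on those libraries. The 10 also followed the epidermis score, with r from 0.646 to 0.945 and 7 at 0.8 or above. With the intestine score r ran from 0.403 to 0.882, with 3 at 0.8 or above. It was negative with the oocyte score (-0.886 to -0.408) and the later embryo score (-0.848 to -0.619). For clec-63, r was 0.88 with the intestine score and 0.85 with the sperm score. Sperm content was thus not the only measure that moved with them, and the name sperm-linked states only r with the sperm score.

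Whether the 10 differed between the strains was not used in choosing them, although the same libraries enter both. Of these, 7 were called higher in pmk-1 in NaCl or KCl, all 7 of them in both, and 0 lower. Of the 75 other tested members, 26 were called higher and 13 lower in NaCl or KCl. Of all tested genes, 16.7% were higher in NaCl and 15.2% in KCl. Among the 7, clec-60 and clec-175 passed the filter on low counts through pmk-1 libraries alone. The members clec-73, clec-79, clec-123 and clec-151 reached its level of 1.05 CPM in too few wild-type libraries to pass there. The direction of these genes is therefore not a result. The median log2 difference of the 10 was 4.22 in NaCl and 4.44 in KCl, against 0.40 and 0.25 for the other 75. In 6 of the 10, these same genes, the wild-type mean was below 1 CPM, so that the median of the 10 is not a result either.

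Of these 6, clec-73 had 0.615, 0.191 and 0.1 CPM in KCl and 2.23, 0.312 and 0.176 in NaCl for wild type, and 36.04, 9.03 and 10.5 in KCl and 65.6, 13.4 and 11.3 in NaCl for pmk-1. The strains did not overlap, and the first replicate was the highest library in each group. It rose by 5.09 ± 1.04 in NaCl (edgeR adjusted p = 0.00658) and 5.89 ± 1.16 in KCl (adjusted p = 0.00599). The next, clec-79, had 1.13, 0.0953 and 0 CPM in KCl and 1.0, 0.624 and 0 in NaCl for wild type, and 34.4, 9.41 and 5.18 in KCl and 49.1, 11.3 and 12.1 in NaCl for pmk-1. Its rises were 5.51 ± 1.21 in NaCl (adjusted p = 0.00823) and 5.30 ± 1.22 in KCl (adjusted p = 0.0108), the latter lost without either wild-type KCl 2 or wild-type KCl 3 (adjusted p of 0.0516 to 0.0523). For clec-123 the levels were 1.03, 0.191 and 0.301 CPM in KCl and 1.22, 0.104 and 0.351 in NaCl for wild type, and 31.5, 5.74 and 8.08 in KCl and 56.8, 13.7 and 7.65 in NaCl for pmk-1. It too was highest in each first replicate and rose by 5.55 ± 1.09 in NaCl (adjusted p = 0.00583) and 4.88 ± 1.08 in KCl (adjusted p = 0.00926), the latter lost without wild-type KCl 3 (adjusted p of 0.0511).

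For the 3 most abundant linked members no strain difference was called. For clec-63 the levels were 502, 342 and 321 CPM in KCl and 466, 326 and 351 in NaCl for wild type, and 542, 278 and 383 in KCl and 725, 402 and 381 in NaCl for pmk-1. The first replicate was the highest of each group and the strains overlapped (log2 0.40 ± 0.30 in NaCl, edgeR adjusted p = 0.322; 0.05 ± 0.30 in KCl, adjusted p = 0.921). A gene with an antimicrobial role against Bacillus thuringiensis, clec-41, had 63.7, 30.3 and 24.6 CPM in KCl and 82.6, 65.8 and 50.4 in NaCl for wild type, and 58.7, 40.7 and 21.1 in KCl and 68.9, 49.6 and 50.3 in NaCl for pmk-1. It overlapped between strains and between salts, with differences of -0.24 ± 0.39 in NaCl (adjusted p = 0.661) and 0.03 ± 0.39 in KCl (adjusted p = 0.969). For clec-83 they were 49.3, 29.7 and 25.5 CPM in KCl and 33.4, 22.9 and 22.04 in NaCl for wild type, and 78.9, 44.02 and 55.6 in KCl and 79.9, 33.4 and 36.5 in NaCl for pmk-1. Its differences of 0.94 ± 0.37 in NaCl (adjusted p = 0.0788) and 0.77 ± 0.37 in KCl (adjusted p = 0.143) missed the threshold. With the replicate block it was called higher in NaCl (0.86, edgeR adjusted p = 0.00151) and in KCl (0.791, adjusted p = 0.00241). Without the first replicates it was also called in NaCl (0.604, adjusted p = 0.011) and in KCl (0.883, adjusted p = 0.00092). DESeq2 called it in NaCl (0.913, adjusted p = 0.0486), and edgeR without pmk-1 NaCl 1 in KCl (0.808, adjusted p = 0.0461).

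**Figure D3:**
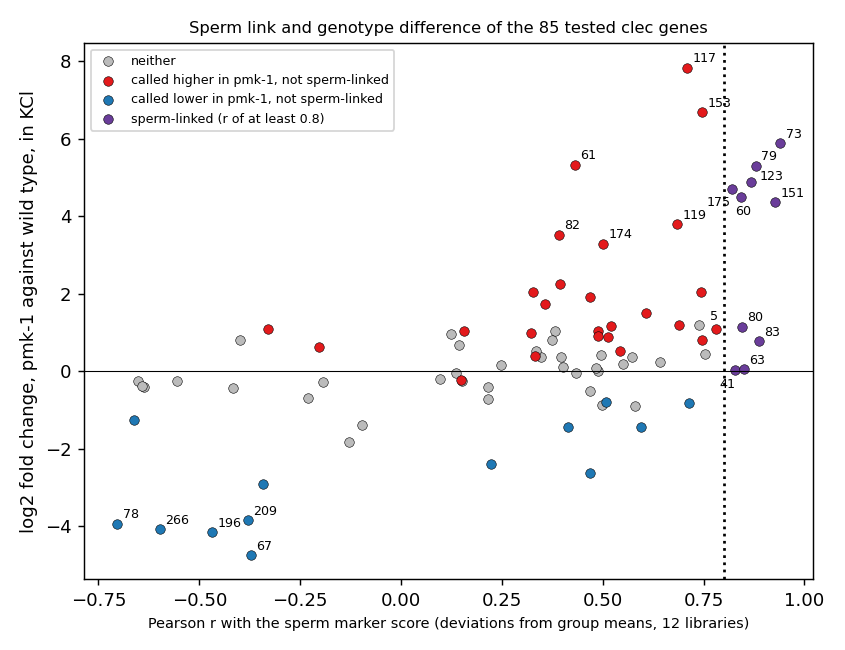
Pearson r of each tested clec gene with the sperm marker score, from the deviations of the 12 libraries from their group means (horizontal), against its log2 fold change of pmk-1 over wild type in KCl (vertical), coloured by class, with the dotted line at r of 0.8. The 10 sperm-linked genes split into 6 with log2 changes above 4 and 4 below 1.5, and the 6 genes lower in pmk-1 in both salts with the largest changes have r of -0.70 (clec-78) to 0.47 (clec-265).

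The sperm score was also put into the fit as a covariate. The count of members higher in pmk-1 was then 0 in NaCl and 0 in KCl, and the member still called lower was clec-209 in both salts, at -2.87 ± 0.44 in NaCl (edgeR adjusted p = 0.0265) and -3.53 ± 0.43 in KCl (adjusted p = 0.00276). The folds did not all shrink. Of the 13 members called lower in KCl, 6 had a fold at least as large with the sperm score, 7 a smaller one and 0 the opposite sign. Among them, clec-265 stood at -4.07 in KCl and -4.64 in NaCl and clec-65 at -1.77 and -1.85, while clec-78 stood at -0.501 and -0.397. In NaCl, clec-67 stood at -6.29. Of the 25 members called higher in KCl, 1 had a fold at least as large, 13 a smaller one and 11 the opposite sign, with 0.0341 for clec-5 and -3.01 for clec-151 as examples of the last 2 kinds. In NaCl, 12 of the 28 called higher had the opposite sign. Apart from clec-209, none of these values passed the threshold. In a fit with the later embryo score instead, an alternative added after the data were seen, no member was called between the strains. Because each score separates the 6 wild-type from the 6 pmk-1 libraries, the covariate and the genotype cannot be told apart in these fits. Within groups, 32 of the 33 members higher in pmk-1 had a negative r with the oocyte score and 31 a positive r with the sperm score, against 6 and 6 of the 13 members lower in pmk-1. The 75 tested members that were not sperm-linked also leaned this way, with a median r of -0.46 and 0.382. These 75 include 26 of the members called higher. All members share the same 12 libraries, and the shares over all tested genes were not computed, so that these counts test nothing.

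The set of 19 clec genes that have been studied in immunity, listed with these data already known, had 14 members, all tested. Of these 14, 4 were called lower in pmk-1 (clec-4, clec-47, clec-67 and clec-85) and 6 higher (clec-49, clec-52, clec-60, clec-61, clec-82 and clec-86). In NaCl the calls were 1 lower and 6 higher, with a median log2 difference of 0.08, and in KCl 4 lower and 6 higher, with a median of 0.23. Of all tested genes, 10.1% were lower and 16.7% higher in NaCl, and 9.18% and 15.2% in KCl. Large fitted changes stood at both ends, with clec-67 and clec-4 low and clec-60 and clec-61 high in pmk-1. However, clec-60, clec-61 and clec-82 passed the filter on low counts through pmk-1 libraries alone, and clec-67 through wild-type libraries alone. The direction of those genes is therefore not a result. The 4 called in neither strain comparison were clec-7, clec-41, clec-66 and clec-70. The level of clec-7 was 25.6, 26.6 and 12.4 CPM in KCl and 30.9, 32.0 and 20.02 in NaCl for wild type, and 45.7, 24.2 and 17.1 in KCl and 30.6, 37.9 and 41.04 in NaCl for pmk-1, which overlapped in every comparison. A rare one, clec-70, had at most 1.77 CPM in any library. In KCl its pmk-1 libraries lay below wild type without passing the threshold (log2 -1.38 ± 1.10, edgeR adjusted p = 0.372).

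The study set NaCl against KCl to find genes that respond to low potassium, although sodium differs in this comparison as well. It called 1 member. In wild type, 0 of 85 were higher in NaCl, against 0.172% of all tested genes, and 1 was lower, against 0.015%. At an unadjusted p under 0.05, 2 members (2.35%) were higher, against 2.94% of all tested genes, and 3 (3.53%) lower, against 1.33%. DESeq2 called 0 higher and 1 lower. In pmk-1, 0 members were higher, against 2.33% of all tested genes, and 0 lower, against 0.382%. There, 8 members (9.41%) were higher at an unadjusted p under 0.05, near the 8.84% of all tested genes, and 1 (1.18%) was lower, against 4.58%. DESeq2 called 1 in each direction. The median log2 difference of the members came to 0.08 (wild type) and 0.22 (pmk-1), while that of all tested genes was -0.01 in both. Groups that did not overlap were found for 6 members above and 6 below in wild type, against 6.93% and 5.6% of all tested genes, and for 5 above and 3 below in pmk-1, against 9.78% and 6.34%.

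The member called was clec-1, with 115, 168 and 120.1 CPM in KCl and 52.99, 48.4 and 55.9 in NaCl for wild type, and 146, 93.4 and 105 in KCl and 119, 124 and 112 in NaCl for pmk-1. The wild-type NaCl values stood below those of the 9 other libraries, and both pmk-1 groups overlapped wild-type KCl. The salt difference in wild type was -1.36 ± 0.18 (edgeR adjusted p = 0.015), and in pmk-1 it was 0.04 ± 0.18 (adjusted p = 0.932). The wild-type call was lost without any one of wild-type NaCl 1, wild-type NaCl 2, wild-type NaCl 3, wild-type KCl 2 or wild-type KCl 3 (adjusted p of 0.054 to 0.126), with log2 differences from -1.46 to -1.16 over all 12 fits that left out 1 library. In NaCl, clec-1 was higher in pmk-1 than in wild type by 1.17 ± 0.18 (adjusted p = 0.00314), a call kept whichever library was left out. This comparison shares the wild-type NaCl libraries with the salt comparison.

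The difference between the salt responses of clec-1, pmk-1 minus wild type, was 1.40 ± 0.25 and missed the threshold (edgeR adjusted p = 0.0828). It passed with the replicate block (adjusted p = 0.0493), in DESeq2 (0.000666), without the first replicates (0.00474) and with the sperm or the later embryo score as a covariate (0.0432 and 0.0439). Of the fits leaving out 1 library, it passed without pmk-1 KCl 1 (0.0244). Over the family, 0 members had a called interaction in either direction, against 0.0374% of all tested genes higher and 0.0% lower, with 3 and 3 (3.53% each) at an unadjusted p under 0.05, against 3.29% and 1.72%, and 1 and 0 in DESeq2. With the sperm score as a covariate the wild-type salt difference of clec-1 was -1.37 ± 0.18 (adjusted p = 0.00512), and with the later embryo score it was -1.43 ± 0.18 (adjusted p = 0.00561). Within groups, clec-1 had an r of 0.15 with the sperm score.

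The direction lower in NaCl was seen in both strains for clec-66, one of the members studied in immunity, with 51.4, 16.8 and 13.9 CPM in KCl and 11.6, 8.32 and 7.02 in NaCl for wild type, and 8.70, 6.77 and 29.4 in KCl and 5.36, 3.85 and 1.58 in NaCl for pmk-1. In each strain all KCl values lay above all NaCl values, while wild-type KCl 1 and pmk-1 KCl 3 stood above the rest. The differences of -1.61 ± 0.64 in wild type (edgeR adjusted p = 0.98) and -2.05 ± 0.68 in pmk-1 (adjusted p = 0.175) did not pass the threshold. In pmk-1 the call was made by DESeq2 (-2.07, adjusted p = 0.0242) and by edgeR without the first replicates (-2.76, adjusted p = 0.0154). The opposite direction in both strains was seen for clec-180, named after its values were seen, with 0, 0.476 and 0.601 CPM in KCl and 1.56, 1.25 and 1.93 in NaCl for wild type, and 0.104, 0.658 and 0.104 in KCl and 3.54, 2.04 and 0.728 in NaCl for pmk-1. Neither of its differences was called (2.09 ± 0.87, adjusted p = 1.0 in wild type; 2.78 ± 0.89, adjusted p = 0.163 in pmk-1).

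In pmk-1, clec-186 and clec-190, both lower than wild type in KCl, had NaCl values above their KCl values. The difference of clec-186 was 1.11 ± 0.31 (edgeR adjusted p = 0.095). It passed with the replicate block (1.12, adjusted p = 0.0313), in DESeq2 (1.07, adjusted p = 0.0244), without the first replicates (1.23, adjusted p = 0.00358) and without pmk-1 KCl 1 (1.57, adjusted p = 0.00848). That of clec-190 was 1.57 ± 0.56 (adjusted p = 0.218). For clec-227, named after its values were seen, NaCl lay above KCl in wild type, at 2.34, 1.14 and 1.23 against 1.13, 0.381 and 0.702 CPM. In pmk-1 it lay below, at 1.94, 1.58 and 2.06 against 4.25, 2.82 and 2.18 CPM. The difference between these responses was -1.80 ± 0.66 (unadjusted p = 0.0187, adjusted p = 0.718).

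**Figure D4:**
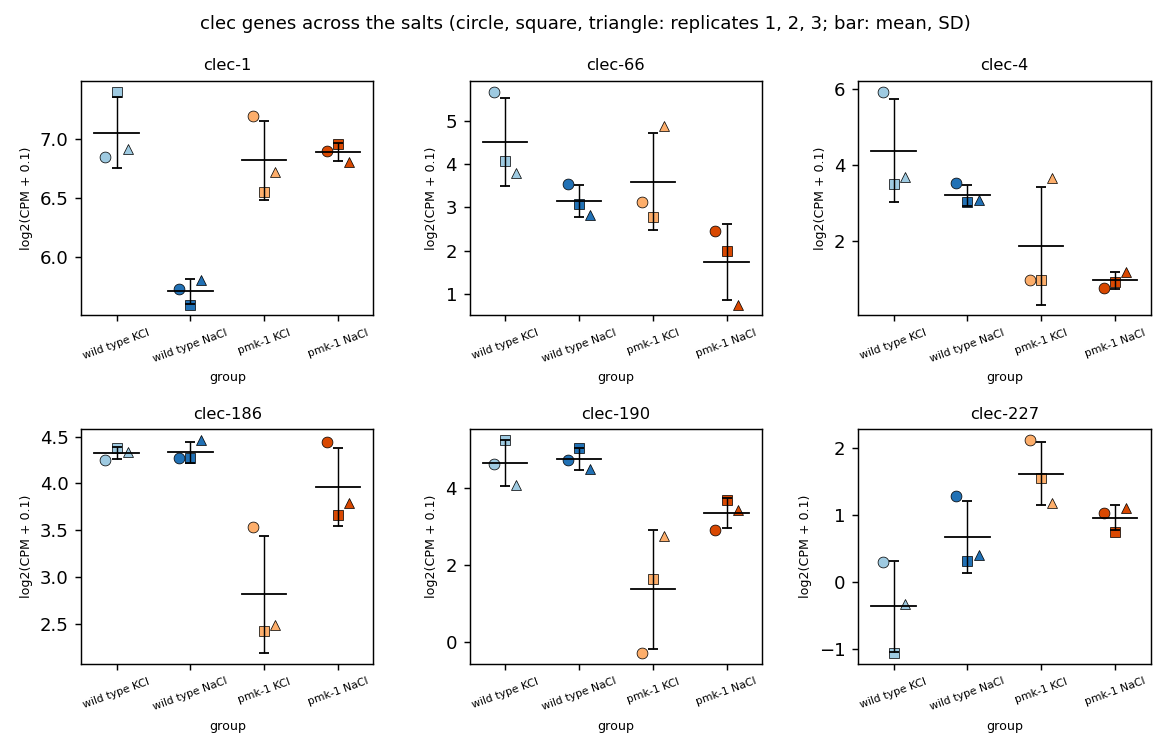
Level of 6 clec genes across the salts, as log2(CPM + 0.1), in the 4 groups, with 1 point a library (circle, square and triangle for replicates 1, 2 and 3), the mean as a bar and the SD as whiskers (n = 3). In the clec-1 panel the 3 wild-type NaCl points, at 48.4 to 55.9 CPM, lie below all others, and in the clec-66 panel NaCl lies below KCl in both strains.

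By position in the Ensembl annotation of WBcel235, the clec genes lie on all nuclear chromosomes, and members of several classes stood side by side. Chromosome IV held 29 of the 89 members, of which 12 were higher in pmk-1, 6 lower and 5 sperm-linked. Chromosome V held 24 members, with 9 higher and 2 lower, from 84 clec genes in the table, and chromosome I held 7 members, with 0 higher and 1 lower, from 35. The shares of all tested genes called on each chromosome were not computed, so that these counts only describe position. With at most 5 protein-coding genes between neighbours, the largest run of members was on chromosome IV, where 12 clec genes from clec-67 to clec-78 held 8 members. In it, clec-67 and clec-78 were lower in pmk-1 and clec-73, clec-79 and clec-174 were higher. Of these, clec-67 and clec-78 passed the filter on low counts through wild-type libraries alone and clec-174 through pmk-1 libraries alone. The genes clec-73 and clec-79 reached its level in too few wild-type libraries to pass there. A second run on chromosome IV, from clec-80 to clec-85, held 5 members, with clec-80, clec-82 and clec-84 higher and clec-85 lower. There, clec-82 passed the filter through pmk-1 libraries alone. On chromosome V, 4 members of a run of 5, clec-54, clec-56, clec-57 and clec-227, were all called higher, clec-56 and clec-57 in NaCl and clec-54 and clec-227 in KCl. No sequence identity was computed between neighbours, and reads shared between close copies could be split by the authors' counting.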

How the data were processed

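RNA of whole animals was sequenced on Illumina NovaSeq instruments with paired ends, per the labels' protocols. For each library, the table deposited by the authors gives expected counts per gene, all of them whole numbers and not normalized. Tools listed in the submitters' processing notes are RSEM 1.3.3, STAR 2.7.1a, DESeq2 1.40.2 and R 4.3.1, with no role or order. In the sources used here, the genome build, the annotation release and the use of strand are not given, so that reads of overlapping genes on either strand cannot be told apart and no gene coordinates are printed. Symbols came from a table of gene names (44017 of 46904 identifiers matched), and exon lengths, chromosomes and gene order from the Ensembl annotation of WBcel235 (46817 matched). No sequence was used here, and no sequence features were computed.

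The members, the marker lists and the tests were chosen with earlier results of these data known. Counts of all genes were filtered with filterByExpr, scaled by TMM and fitted with 1 mean per group over all 12 libraries in edgeR 4.0.16 (limma 3.58.1, R 4.3.3). The quasi-likelihood test was used, with Benjamini-Hochberg adjustment over all 13353 tested genes, and a call is an adjusted p under 0.05. Every adjusted p in the text is from this edgeR fit unless DESeq2 (1.42.0) is named. The values after ± are standard errors for log2 differences and SDs for CPM. CPM use the TMM effective library sizes, and levels are listed in the order of replicates 1, 2 and 3. The fit was tested on simulated counts. The totals of 8931797 to 11445709 counts per library limit precision for rare members, and the p-values measure the spread between libraries that the labels call biological replicates without naming separate cultures.

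The 32 genes named by rule were, per comparison and direction, the 6 called members with the smallest p at a mean of at least 1 CPM, then the 6 sperm-linked members with the highest CPM, the tested members studied in immunity and the 3 most abundant members. Other members are named where a count is small, where a limit or an order falls, or after their values were seen. Marker scores average log2 CPM (prior count 2), centred per gene over the 12 libraries. The replicate numbers are shared by the groups. The correlation of same-numbered libraries' deviations was 0.197 to 0.629 between the salts in wild type, 0.391 to 0.743 in pmk-1, 0.226 to 0.423 between the strains in NaCl and 0.0717 to 0.431 in KCl. By the rule of 0.1 in every pair, the numbers were taken as pairing in the first 3 comparisons and not in the fourth. Between replicates 2 and 3, however, libraries of different number gave 0.0406 and 0.256 in wild type and 0.41 and 0.52 in pmk-1. Between the strains in NaCl they gave 0.216 and 0.243. A pairing of replicates 2 and 3 is thus not shown, and the numbers mainly set the first replicates apart. Alternatives were RLE scaling, DESeq2, no filter, the replicate block, fits without the first replicates, on the 6 libraries compared or without each library in turn, a marker score as a covariate and other limits for r.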

Additional observations from a re-analysis of the deposited data

How the results depend on the processing

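Counts of called members kept within 1.5 times of their value under RLE scaling, without the filter and with the 6 compared libraries alone. In pmk-1, NaCl against KCl, the number higher was 1 in DESeq2, 1 with the replicate block and 4 when the first replicates were left out (clec-170, clec-173, clec-174 and clec-186), and the number lower was 1 in DESeq2 and 2 without the first replicates (clec-66 and clec-83). Between the strains in NaCl, 13 members were lower with the replicate block and 14 when the first replicates were left out. With the sperm score as a covariate, 0 members were higher and 1 lower in NaCl, and 0 higher and 1 lower in KCl. With the later embryo score, chosen after the data were seen, these counts were 0 and 0 in both salts. The interaction called 1 member higher in DESeq2, with the block, without the first replicates and with either score, in each case clec-1. The sperm-linked members numbered 19 at r of at least 0.7, 2 at 0.9 and 6 without the first replicates, of which 0 were among the 10. Leaving out 1 library at a time gave 0 to 1 lower in wild-type NaCl, 0 to 3 higher in pmk-1 NaCl, 12 to 29 higher and 6 to 10 lower between strains in NaCl, 10 to 31 and 8 to 14 in KCl, 0 to 1 for the interaction and 10 to 14 sperm-linked.

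Of 41 calls of named members, all 41 were kept in DESeq2, with RLE scaling, without the filter and with the replicate block, 38 without the first replicates, 36 of 39 on the 6 libraries alone, 3 with the sperm score and 1 with the later embryo score. The replicate block removed none of these calls, although a pairing of replicates 2 and 3 by number is not shown. The direction of a named call turned only in the fits with a marker score, 9 times with the sperm score and 7 with the later embryo score, never past the threshold. Each score separates the strains, so that score and genotype cannot be told apart in these values. With the sperm score the log2 differences became, in NaCl and KCl, -2.60 and -1.86 for clec-61, -1.29 and -0.159 for clec-73, -0.85 and -0.693 for clec-79 and -0.84 and -1.15 for clec-123, and -0.764 in NaCl for clec-60. With the later embryo score they became -2.01 and -2.49 for clec-61, -0.229 and -0.987 for clec-79, -0.0832 in KCl for clec-123, -0.418 in NaCl for clec-170 and 0.529 in KCl for clec-266. Between the strains in KCl, where the replicate numbers were not taken as pairing, the block added calls higher for clec-8, clec-56, clec-83, clec-170 and clec-174. Members under 1 CPM rest on few counts, and a missed threshold there does not show equal levels.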

Other observations

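Further members higher in pmk-1, chosen here after their values were seen, were of low level in both strains. One of them, clec-204, had 1.33, 2.0 and 1.10 CPM in KCl and 1.67, 0.832 and 1.05 in NaCl for wild type, and 3.0, 3.76 and 3.21 in KCl and 5.48, 3.06 and 3.89 in NaCl for pmk-1. Its groups did not overlap in either salt, and the difference was 1.80 ± 0.39 in NaCl (edgeR adjusted p = 0.00782) and 1.16 ± 0.38 in KCl (adjusted p = 0.0445), the latter lost without any one of pmk-1 NaCl 2, pmk-1 NaCl 3, wild-type NaCl 2, wild-type NaCl 3, wild-type KCl 1, wild-type KCl 2, wild-type KCl 3, pmk-1 KCl 1, pmk-1 KCl 2 or pmk-1 KCl 3 (adjusted p of 0.0515 to 0.159). For clec-142 the values were 0.718, 0.572 and 0.902 CPM in KCl and 0.111, 0.208 and 0.439 in NaCl for wild type, and 2.07, 1.41 and 1.04 in KCl and 3.65, 1.36 and 1.34 in NaCl for pmk-1. It was called in NaCl (2.96 ± 0.61, adjusted p = 0.00681) and not in KCl (1.03 ± 0.55, adjusted p = 0.187), with a difference between the 2 of 1.93 ± 0.82 that did not pass the threshold (adjusted p = 0.936). A sperm-linked member, clec-175, had 0.308, 0 and 0 CPM in KCl and 0.111, 0 and 0 in NaCl for wild type, and 5.49, 1.60 and 1.66 in KCl and 10.8, 1.92 and 1.70 in NaCl for pmk-1. It rose by 6.70 ± 1.36 in NaCl (adjusted p = 0.00655) and 4.69 ± 1.20 in KCl (adjusted p = 0.0164), the latter lost without any one of wild-type KCl 2, wild-type KCl 3 or pmk-1 KCl 1 (adjusted p of 0.0517 to 0.0751). Of these, clec-142 and clec-175 passed the filter on low counts through pmk-1 libraries alone. The NaCl calls of all 3 were kept whichever library was left out.

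An abundant member that no comparison called was clec-50, with 156, 137 and 128 CPM in KCl and 164, 145 and 147 in NaCl for wild type, and 223, 115 and 162 in KCl and 219, 153 and 168 in NaCl for pmk-1. Its strains and salts overlapped, with differences of 0.24 ± 0.21 between strains in NaCl (edgeR adjusted p = 0.39) and 0.25 ± 0.21 in KCl (adjusted p = 0.401). By level, the 40 tested members at 1 to under 10 CPM gave 20 calls higher and 5 lower in pmk-1, the 31 at 10 to under 100 gave 11 and 8, and the 6 at 100 or more gave 1 and 0. The shares of all tested genes called at these levels were not computed. Members that passed the filter through 1 strain alone are among those counted.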
